A study of Homo sapiens with 6 samples.

Results

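The Hippo pathway genes described here are the kinases LATS1 and LATS2, the coactivators YAP1 and WWTR1, the DNA-binding factor TEAD4, and 4 genes known as targets of these factors, CTGF, CYR61, ANKRD1 and AMOTL2. They were chosen by name: every array probe whose gene name equalled one of the 9 names was taken. This gave 13 of the 47230 probes on the array, and 9 of its 31334 gene names. RefSeq now lists CTGF as CCN2 and CYR61 as CCN1. The array also had 3 probes named TAZ, a name that RefSeq gives as a synonym of both WWTR1 and TAFAZZIN, and these were left out.

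The study asked which genes change when HERVH is depleted. HERVH is an endogenous retrovirus family that is transcribed in human pluripotent cells. H1 is an established human embryonic stem cell line, grown here without feeder cells on Matrigel in conditioned medium and used at passage 32. The first group had 3 samples transfected with 2 µg of a pSUPER plasmid that expresses a short hairpin RNA (shRNA) against HERVH. The second had 3 samples given the same amount of a pSUPER plasmid with an shRNA against luciferase, called control shRNA. All were harvested on day 5 after transfection, and their RNA (500 ng each) was amplified and labelled with biotin for a 1-colour Illumina array. The labels name 1 cell line, 1 HERVH plasmid and no selection of transfected cells. They do not say that replicates came from separate cultures, so the spread between these samples may be technical. The p-values below rest only on that spread, with each probe's spread pooled in part with that of probes of like signal.

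In the Hippo pathway, kinases of the MST family, encoded by STK3 and STK4, activate LATS1 and LATS2, which phosphorylate YAP1 and its paralog TAZ, the product of WWTR1. Phosphorylated YAP1 and TAZ are held in the cytoplasm. Unphosphorylated, they enter the nucleus and act through TEAD factors, and CTGF and CYR61 are the genes most often used to read that activity. The pathway responds to cell density, cell shape and attachment. Phosphorylation and location of YAP1 and TAZ are not measured by an RNA array.

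TEAD factors bind a short core motif, GGAATG. The 250 bases upstream of an annotated start site were searched for it on both strands (GGAATG or its complement CATTCC) in the RefSeq promoter table of GRCh38.p14. The table held 10 such windows for 7 of the 9 genes. It held none for CYR61 and TEAD4, so these were not searched. Of all 35116 windows in the table, 11.9% held at least 1 match, 0.940% held at least 2 and 0.0826% held at least 3. The CTGF window had 3 matches, the ANKRD1 window 2, the YAP1 window 1, and 1 of the 2 AMOTL2 windows had 1. No match was found in the windows of WWTR1, LATS1 and LATS2. A match is a description of the letters, not evidence of binding. The sequences are shown for the target with the most matches, for the other target with several, and for the target whose signal was not called different. They lie on the minus strand of chr6:131951373-131951622 (CTGF), chr10:90921088-90921337 (ANKRD1) and chr3:134374448-134374697 (AMOTL2). They run 5′ to 3′ and end at the base before the start site, and capitals mark the motif.
CTGF: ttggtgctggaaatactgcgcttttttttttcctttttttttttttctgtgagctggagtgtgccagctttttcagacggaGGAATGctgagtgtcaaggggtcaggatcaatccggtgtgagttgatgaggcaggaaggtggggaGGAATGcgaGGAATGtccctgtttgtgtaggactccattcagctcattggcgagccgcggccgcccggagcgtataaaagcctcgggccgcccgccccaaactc
ANKRD1: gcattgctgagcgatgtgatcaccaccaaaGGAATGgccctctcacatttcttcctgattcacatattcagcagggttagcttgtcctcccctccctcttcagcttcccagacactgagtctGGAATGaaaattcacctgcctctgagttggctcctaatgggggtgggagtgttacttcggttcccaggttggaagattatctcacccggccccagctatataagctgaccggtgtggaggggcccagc
AMOTL2: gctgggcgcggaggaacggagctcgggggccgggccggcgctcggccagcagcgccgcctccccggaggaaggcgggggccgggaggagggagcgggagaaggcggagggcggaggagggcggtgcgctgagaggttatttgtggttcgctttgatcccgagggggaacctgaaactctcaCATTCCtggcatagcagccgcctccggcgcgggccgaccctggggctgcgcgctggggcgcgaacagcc

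**Figure D1:**
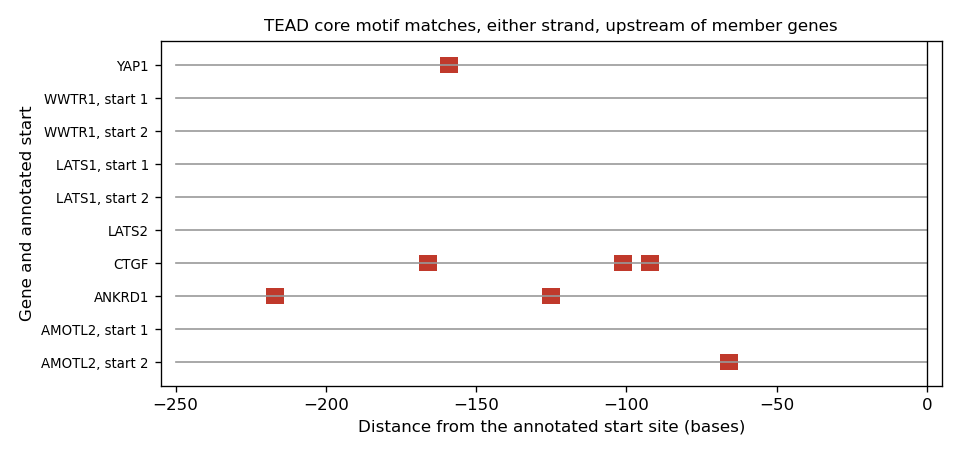
Positions of the TEAD core motif, on either strand, in the 250 bases upstream of each annotated start site of the member genes (horizontal axis, distance in bases; each bar spans 1 match). CTGF has matches that begin at -169, -104 and -95, ANKRD1 at -220 and -128, YAP1 at -162 and AMOTL2 at -69.

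The signals are the authors' processed intensities, in arbitrary units on a linear scale. No signal was below 28.9, so they hold a background level or an added offset. Whether any background was taken away is not stated in the sources used here. The median probe had a signal of 73.5 to 73.8 in HERVH shRNA samples and 71.2 to 71.6 in control shRNA samples. Probes for olfactory receptors, a family that is silent in most tissues, served as a guide to the level of a dim probe, a choice made after the data were seen. The 95th percentile of these 463 probes was 80.1 in HERVH shRNA cells and 75.8 in control shRNA cells. Of the 13 Hippo probes, 8 were above that level in both groups, 2 in 1 group and 3 in neither. Log2 signals were correlated at 0.994 to 0.995 within HERVH shRNA samples, at 0.994 to 0.995 within control shRNA samples and at 0.968 to 0.972 between the groups (Pearson's r across probes, which are not independent). No sample stood apart from its group.

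The comparison used limma on log2 signals of all 47230 probes, with p-values adjusted by the Benjamini-Hochberg method over all of them. A probe was called where the adjusted p was under 0.05, and a difference is HERVH shRNA minus control shRNA on the log2 scale. Calls were made for 12573 probes (26.6%), with 6331 higher (13.4%) and 6242 lower (13.2%) in HERVH shRNA cells. Against this background, 6 of the 13 Hippo probes were called higher and 3 lower. The groups did not overlap for 7 of the 13 probes, against 36.6% of all probes. Of the 10 Hippo probes brighter than the array median, 5 were called higher and 3 lower, where 22.9% of all such probes were called higher and 25.5% lower (48.4% in all). A rise of at least 2-fold was called for 3 of the 13 and a fall of that size for 0, against 1.14% and 1.44% of all probes. The median difference was 0.13 over the 13 probes and 0.05 over all probes. An exact two-sided permutation test of 3 samples against 3 cannot give a p below 0.1, so it was not used for single probes. In bulk RNA, fewer cells of a type and less RNA per cell cannot be told apart.

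The clearest differences were in the RNA of the targets that encode secreted proteins. CTGF, which encodes a matricellular protein, and CYR61, its relative in the CCN family, both rose in HERVH shRNA cells. The CTGF probe ILMN_1699829 had signals of 9314, 8293 and 9385 in HERVH shRNA samples, against 2350, 3042 and 2578 in control shRNA samples. Every HERVH shRNA sample lay far above every control shRNA sample. The difference was 1.77 ± 0.08 (SE, n = 3 in each group), a fold of 3.40 (limma, adjusted p = 5.3e-21). A second CTGF probe, ILMN_2115125, read 3927, 3887 and 3547 in HERVH shRNA samples, against 1061, 1074 and 1125 in control shRNA samples. Its fold was 3.48 (difference 1.80 ± 0.07 SE, limma adjusted p = 1.5e-23), so the CTGF probes gave folds close to each other. CYR61 had signals of 2627, 2604 and 2691 in HERVH shRNA samples, against 1079, 1027 and 1059 in control shRNA samples. Its groups were also widely apart, with a difference of 1.32 ± 0.06 (SE), a fold of 2.50 (limma, adjusted p = 7.8e-20).

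**Figure D2:**
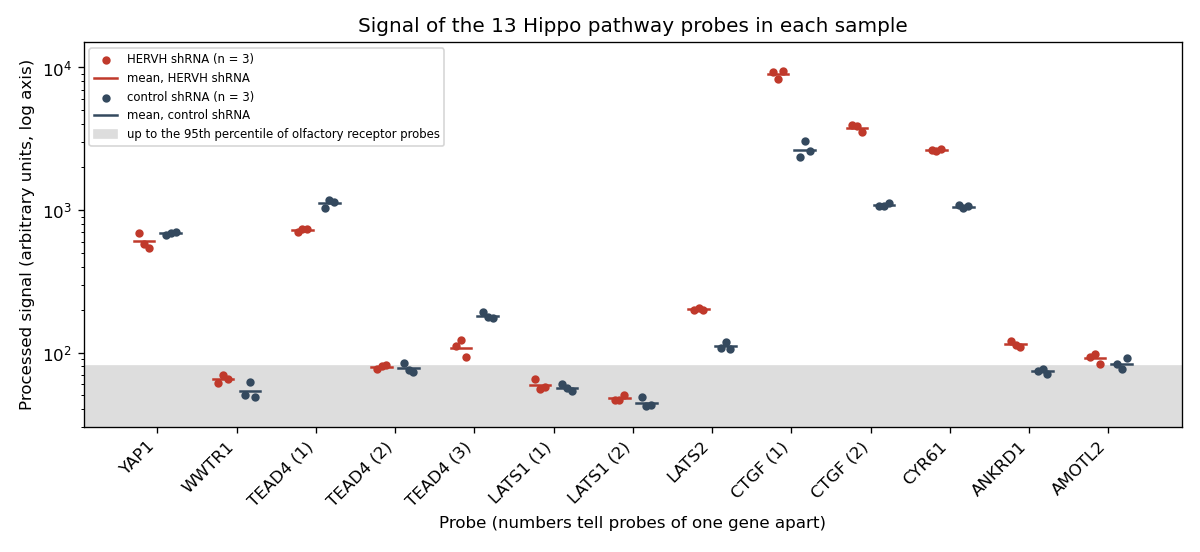
Signal of each Hippo probe (vertical log axis, arbitrary units) in each of 3 HERVH shRNA samples (red, left of each pair) and 3 control shRNA samples (dark, right). Points are samples, short lines are group means, and the grey band reaches up to 80.1, the higher of the dim levels given by olfactory receptor probes. CTGF, CYR61, LATS2 and ANKRD1 lie higher in HERVH shRNA samples, and TEAD4 lies lower on 2 of its 3 probes.

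ANKRD1 encodes an ankyrin repeat protein of muscle nuclei and sarcomeres that is induced by YAP1 in many cell types. It had signals of 120.1, 114 and 110.1 in HERVH shRNA samples, against 74.1, 76.7 and 70.9 in control shRNA samples. The groups did not overlap, but the control shRNA samples averaged 73.9 ± 2.87 (SD, n = 3), at the level of dim probes. The difference was 0.63 ± 0.08 (SE, limma adjusted p = 5.3e-08), a fold of 1.55 that includes the background in both groups. AMOTL2, an angiomotin family protein that binds YAP1 and is itself a target, had 92.7, 97.3 and 83.7 in HERVH shRNA samples, against 82.5, 76.1 and 91.0 in control shRNA samples. These groups overlapped, and the difference of 0.13 was not called (95% interval -0.05 to 0.31, limma adjusted p = 0.32).

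The LATS kinases inhibit YAP1 and TAZ, and LATS2 is also transcribed in response to them. LATS2 had 198, 205 and 199 in HERVH shRNA samples, against 108, 118 and 105 in control shRNA samples. It rose by 0.86 ± 0.08 (SE), a fold of 1.82 with no overlap between the groups (limma, adjusted p = 3.4e-12). Both LATS1 probes were dim. ILMN_1696921 averaged 59.4 ± 5.43 in HERVH shRNA cells and 56.6 ± 3.36 in control shRNA cells, and ILMN_2108029 averaged 47.7 ± 2.28 in HERVH shRNA cells and 44.6 ± 3.66 in control shRNA cells (SD, n = 3 each). Neither was called (limma, adjusted p = 0.69 and 0.56), and no difference in LATS1 could be read at this signal. The 95% intervals were -0.13 to 0.26 and -0.10 to 0.30. Dim signals understate a difference, so LATS1 and LATS2 were not compared.

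YAP1 and WWTR1, the coactivators, had small differences whose calls depended on the setting. YAP1 had signals of 686, 573 and 545 in HERVH shRNA samples, against 671, 689.7 and 707 in control shRNA samples. The first HERVH shRNA sample lay inside the control range, while the other samples of that group lay below it. The difference was -0.20 ± 0.07 (SE, limma adjusted p = 0.032), and the call was lost in 7 of the 17 alternative settings, among them leaving out HERVH shRNA replicate 2 or 3 or control shRNA replicate 2 or 3. Without those samples the differences were -0.17, -0.14, -0.20 and -0.19. WWTR1 had 61.3, 69.1 and 64.9 in HERVH shRNA samples, against 50.7, 62.3 and 48.4 in control shRNA samples. The groups overlapped, all 6 signals were at the level of dim probes, and the call (difference 0.28 ± 0.10 SE, limma adjusted p = 0.030) was lost in 8 of 16 alternatives. Leaving out HERVH shRNA replicate 2 or 3, or control shRNA replicate 1 or 3, gave limma adjusted p-values of 0.15, 0.062, 0.11 and 0.19. A floor of 4, counted among the alternatives for YAP1 and WWTR1, changed no value and could only repeat the calls.

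TEAD4, a DNA-binding partner of YAP1 and TAZ, fell in HERVH shRNA cells on 2 of its 3 probes. ILMN_1705301 had 702, 739 and 734 in HERVH shRNA samples, against 1038, 1171 and 1133 in control shRNA samples. The groups lay clearly apart, with a difference of -0.62 ± 0.07 (SE, limma adjusted p = 4.6e-10). ILMN_2413041 had 111, 122 and 92.4 in HERVH shRNA samples, against 193, 178 and 174 in control shRNA samples. Its difference was -0.75 ± 0.09 (SE, limma adjusted p = 1.9e-09). The remaining probe, ILMN_1722824, averaged 79.6 ± 2.08 in HERVH shRNA cells and 77.9 ± 6.15 in control shRNA cells (SD, n = 3 each), near the level of dim probes, and was not called (limma, adjusted p = 0.85). Probe sequences were not used here, so the transcripts that each TEAD4 probe reads are not known.

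**Figure D3:**
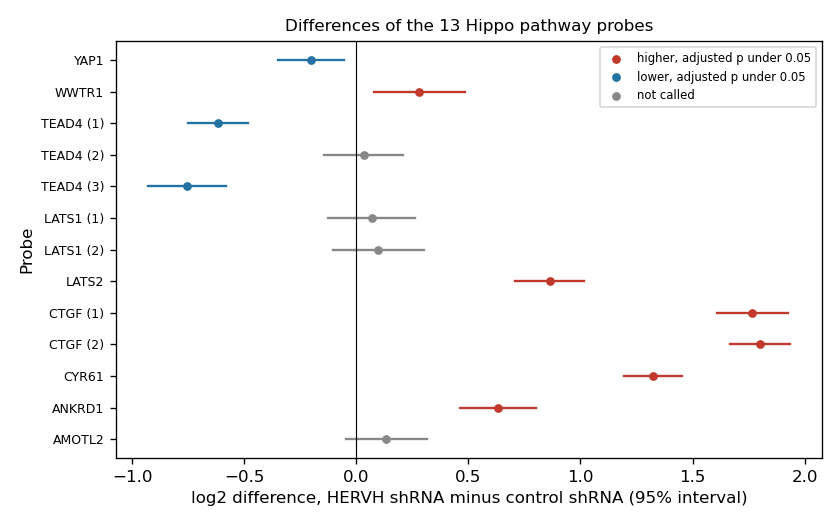
Difference in log2 signal of each Hippo probe between HERVH shRNA and control shRNA cells (horizontal axis), with points for the limma estimate and lines for its 95% interval. Differences run from -0.75 for a TEAD4 probe to 1.80 for a CTGF probe.

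Other TEAD factors and cofactors were described from a list of 8 genes with 11 probes, of which 3 probes were called higher (27.3%) and 2 lower (18.2%). Among probes brighter than the median 22.9% were higher and 25.5% lower, and among all probes 13.4% and 13.2%, so counts this small say nothing about the list. TEAD2 fell with TEAD4, with signals of 2846, 2738 and 2716 in HERVH shRNA samples, against 3682, 3945 and 3548 in control shRNA samples (difference -0.43, limma adjusted p = 1.9e-06). TEAD3 went the other way, with 228, 247 and 204 in HERVH shRNA samples, against 124, 121 and 123 in control shRNA samples (difference 0.88, limma adjusted p = 3.4e-12). The members of the TEAD family were thus called in both directions. VGLL4, a cofactor that competes with YAP1 for TEAD, averaged 684 ± 43.3 in HERVH shRNA cells and 539 ± 30.9 in control shRNA cells (SD, n = 3 each) and was called higher (difference 0.34, limma adjusted p = 9.3e-05). TEAD1 was called lower on 1 of 2 probes (difference -0.29) and RUNX2, a TAZ-binding factor of bone, higher on 1 of 3 (difference 0.45), both from signals near the dim level. The count of lower probes in this list was 1 without HERVH shRNA replicate 3, and also 1 without control shRNA replicate 1. VGLL1, VGLL3 and TP73 were not called, but their signals were near or below the level of dim probes, where a small change could not be read.

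Upstream of YAP1 and TAZ, 22 genes with 39 probes were examined, and 13 probes were called higher (33.3%) and 4 lower (10.3%), beside 13.4% and 13.2% of all probes and 22.9% and 25.5% of those brighter than the median. The median difference was 0.09, against 0.05 over all probes. The groups did not overlap for 24 of the 39 probes, against 36.6% of all probes. STK4 had 1831, 2018 and 2145 in HERVH shRNA samples, against 1246, 1462 and 1357 in control shRNA samples, and was called higher (difference 0.56, limma adjusted p = 2.1e-08). STK3, the other MST kinase gene, was not called.

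TAOK1, a kinase that acts on the MST kinases, had the second largest rise in the upstream list by probe, 0.74, and its relative TAOK2 rose by 0.23 on 1 of 3 probes. MOB1A and MOB1B, the LATS cofactors listed on the array as MOBKL1B and MOBKL1A, rose by 0.34 and 0.30. The junction and scaffold genes FRMD6 (0.50 and 0.34 on 2 of 3 probes), AMOT (0.52) and PTPN14 (0.27) were also called higher. So were the protocadherins DCHS1 (0.32, with overlapping groups) and FAT4 (0.24, on 1 of 2 probes and dim). RASSF1, a scaffold that binds the MST kinases, had probes in both directions: 0.82 and 0.39 on ILMN_1734205 and ILMN_2393573, and -0.27 on the dim probe ILMN_1683239. WWC1, also called KIBRA, fell by 0.40 on the log2 scale. MAP4K4, a kinase that can activate LATS, fell by 0.37 and 0.47 on 2 of its 3 probes. The other 9 genes, such as NF2, SAV1 and YWHAQ, had no probe called. Among them NF2, AMOTL1 and LIMD1 had signals near or below the level of dim probes, so a small change in those genes could not be read.

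**Figure D4:**
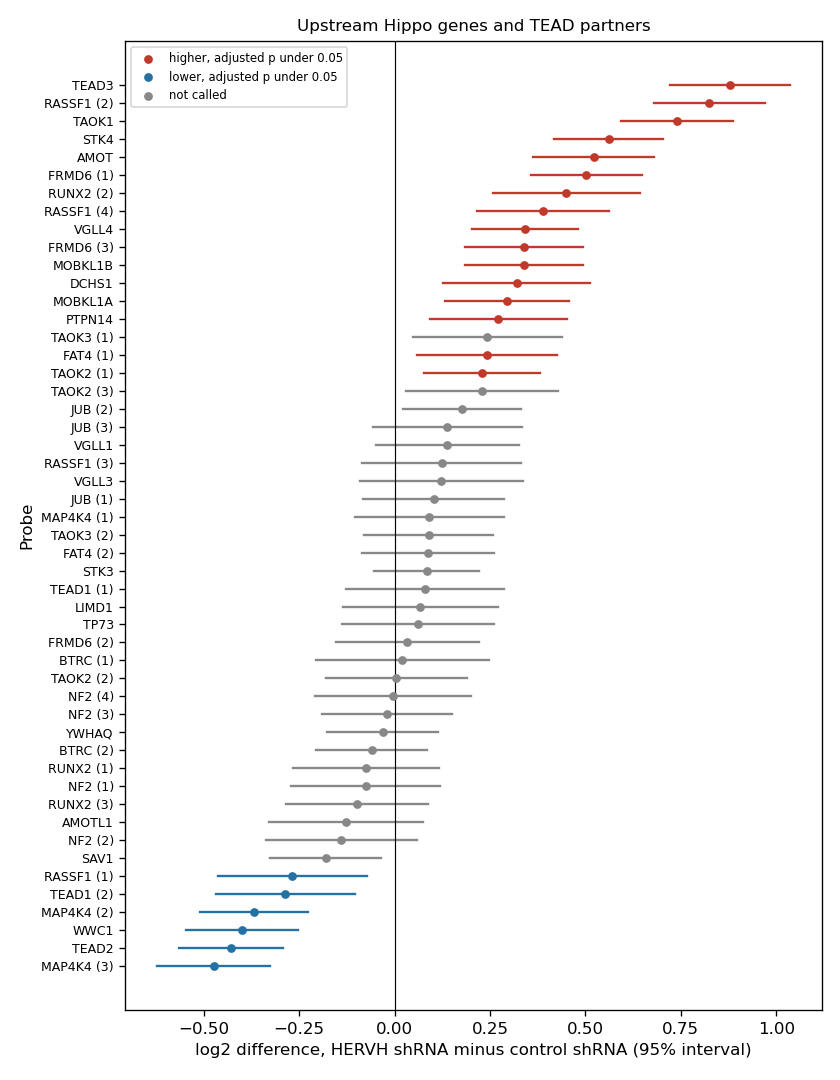
Difference in log2 signal, HERVH shRNA minus control shRNA (horizontal axis), for 39 probes of 22 upstream Hippo genes and 11 probes of 8 TEAD factors and partners, sorted by size. Points are limma estimates and lines are 95% intervals, running from -0.47 for a MAP4K4 probe to 0.88 for TEAD3.

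Further genes known in other cell types as targets of YAP1 and TAZ were taken as a list of 21 genes that holds none of the 9 genes above. The list was chosen with earlier results of this series known, so its counts are not independent evidence. Of 35 probes, 21 were called higher (60%) and 2 lower (5.71%), beside 13.4% and 13.2% of all probes. Of the 35, 28 were brighter than the median, and of all such probes 22.9% were called higher and 25.5% lower. By gene, 12 of 21 had a probe called higher, 1 had probes called lower and 8 had none called. The median difference was 0.79, against 0.05 over all probes. A rise of at least 2-fold was called for 15 of the 35 probes, beside 1.14% of all probes. EDN1, the vasoconstrictor endothelin, had 1594, 1618 and 1750 in HERVH shRNA samples, against 109, 101 and 123 in control shRNA samples. This was a difference of 3.90 ± 0.07 (SE), a fold of 14.9, and ranked 4 among all probes from the top (limma, adjusted p = 7.8e-33). NPPB, the natriuretic peptide gene, had 815, 769.6 and 775 in HERVH shRNA samples, against 77.1, 91.2 and 87.4 in control shRNA samples (difference 3.21, limma adjusted p = 4.7e-30). The control signals of NPPB were close to the level of dim probes.

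AXL, a receptor tyrosine kinase, had 2 probes that averaged 1579 ± 168 and 1206 ± 111 in HERVH shRNA cells, against 328 ± 6.02 and 259 ± 9.99 in control shRNA cells (SD, n = 3 each). Its differences were 2.26 and 2.21. MYOF, a membrane repair protein, rose by 2.31, 1.87 and 0.78 on its 3 probes, of which 2 carry the older name FER1L3. FJX1 rose by 2.19, and GADD45A, a stress response gene, by 1.15 and 1.90. NUAK2, a kinase, rose by 1.64 and 0.54, and F3, the coagulation factor called tissue factor, by 1.60 and 1.18. NT5E, the surface enzyme CD73, averaged 173 ± 14.3 in HERVH shRNA cells and a dim 55.0 ± 6.71 in control shRNA cells (SD, n = 3 each), a difference of 1.65. IGFBP3, a binding protein of insulin-like growth factors, rose by 1.08 and 1.19. THBS1, the matrix protein thrombospondin, rose by 0.96, and ASAP1 by 0.82, 0.79 and 0.36. BIRC5, the mitotic protein survivin, was the 1 gene of the list that fell, by 0.45 and 0.59 on its 2 probes. CRIM1, FOXF2, CCDC80, DOCK5, ARHGEF17, TGFB2, RBMS3 and DKK1 were not called. Of these, FOXF2, CCDC80, TGFB2 and DKK1 lay below the level of dim probes in both groups. The others were near or below it, with CRIM1 at 99.1 in HERVH shRNA cells and 88.2 in control shRNA cells. At such signals a small change in these genes could not be read.

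**Figure D5:**
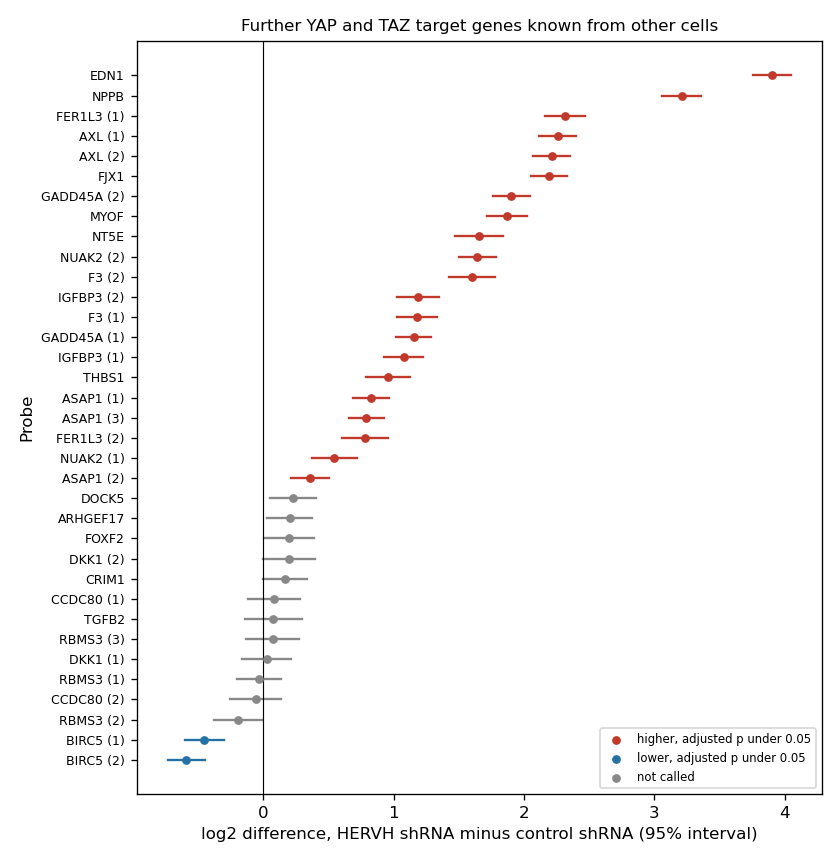
Difference in log2 signal, HERVH shRNA minus control shRNA (horizontal axis), for 35 probes of 21 further YAP1 and TAZ target genes, sorted by size. Points are limma estimates and lines are 95% intervals. EDN1 and NPPB lie above 3, and the BIRC5 probes lie below 0.

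The array allowed a comparison of CTGF and CYR61 with the other CCN genes, a list added after the data were seen. NOV, WISP1, WISP2 and WISP3 had 7 probes, whose differences ran from -0.04 to 0.34. Their signals were at the level of dim probes, and 1 WISP3 probe was called higher (limma, adjusted p = 0.0060). At such signals a small change in these genes could not be read.

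Markers of cell identity moved in the same comparison. A gene counts as called here if any of its probes was called. Of all probes 13.4% were called higher and 13.2% lower, and of those brighter than the median 22.9% and 25.5%. Of stem cell marker probes 60% were called lower and 5% higher. The share called higher was 56.5% of fibroblast or mesenchymal, 61.5% of trophoblast, 20% of endoderm, 22.2% of mesoderm and 20% of neuroectoderm marker probes. The stem cell genes POU5F1 and SOX2 were bright in control shRNA cells and lower in HERVH shRNA cells. The POU5F1 probe ILMN_1705546 averaged 1389 ± 34.8 in HERVH shRNA cells and 2926 ± 248 in control shRNA cells, and the SOX2 probe ILMN_1770635 averaged 554 ± 60.2 in HERVH shRNA cells and 2482 ± 39.6 in control shRNA cells (SD, n = 3 each). The other SOX2 probe, ILMN_2177156, averaged 1298 ± 159 in HERVH shRNA cells and 1794 ± 182 in control shRNA cells (SD, n = 3 each), a smaller fall of 0.47 on the log2 scale. The other POU5F1 probe was near the dim level and not called (difference -0.13). NANOG fell by 0.44 on 1 probe and had a difference of -0.17 on the other, which was not called. Of 12 stem cell markers, 8 were called lower and 1 higher. The 1 called higher was LEFTY1, which averaged 9285 in HERVH shRNA cells and 4088 in control shRNA cells (difference 1.19, limma adjusted p = 3.3e-16). TDGF1, ZFP42 and SALL4 were not called. ZFP42 and SALL4 were bright, but 1 TDGF1 probe was dim (64.4 in HERVH shRNA cells, 63.8 in control shRNA cells). The other TDGF1 probe was not far above that level (102 in HERVH shRNA cells, 97.7 in control shRNA cells). The summed signal of all 12, LEFTY1 included, was 38981 to 42387 in HERVH shRNA samples and 52390 to 56452 in control shRNA samples. Of 12 fibroblast or mesenchymal markers, 8 were called higher and 0 lower by limma, with a summed signal of 51807 to 55934 in HERVH shRNA samples and 21065 to 21524 in control shRNA samples. The genes called higher were ACTA2, a smooth muscle actin (2.48), TAGLN (1.52 and 1.20 on 2 of 3 probes), VIM (2.05 and 1.33), COL1A2 (2.05 and 1.41), FN1 (1.31 and 0.83 on 2 of 3 probes), COL1A1 (0.49), COL6A3 (0.49 and 0.26) and COL3A1 (0.36). The other 4 were not called, of which DCN, LUM and POSTN were dim in both groups and THY1 had a difference of 0.01. Trophoblast markers (6 of 8 genes higher) summed to 2512 to 2646 in HERVH shRNA samples and 1331 to 1361 in control shRNA samples. Endoderm markers (2 of 6 higher, 1 lower) summed to 1543 to 1602 in HERVH shRNA samples and 664 to 693 in control shRNA samples, but their median difference was 0.07 and 7 of 10 probes were not called. AFP, with a difference of 2.59, made up most of the gap between those sums. Of 6 mesoderm markers 1 was called higher, with sums of 758 to 779 in HERVH shRNA samples and 689.6 to 744 in control shRNA samples. Of 6 neuroectoderm markers 2 were called higher, with sums of 3557 to 3855 in HERVH shRNA samples and 1738 to 1836 in control shRNA samples. Their median difference was 0.13, 8 of 10 probes were not called, and NES, with a difference of 1.34, made up most of that gap. The part of any change in cell makeup in the CTGF, CYR61, LATS2, ANKRD1 and TEAD4 differences was not tested. No probe name contained HERVH (0 of 43960 named probes), so its depletion was not read here.

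The named probes most like each called Hippo probe were found by Pearson's r of log2 signals over the 6 samples, among 21759 named probes brighter than the median. These values mostly restate the gap between the groups and are a description. For the CTGF probes they were ZFYVE1, PPM1D and DEGS1, and LOC392437 and CDH13, with r from 0.9998 to 0.99998. For CYR61 they were CDC2L6, SLC7A14 and RNF144B, for LATS2 LOC202781, LOC285359 and RNY3, and for ANKRD1 PAQR7, HYAL2 and MMP24, with r from 0.9991 to 0.9999. For the TEAD4 probes they were LOC285053, CAND2 and LOC728820, and NIPBL, MTR and RAB33A (r from 0.9970 to 0.9996). YAP1 was most like KBTBD7, COL4A6 and TRIM36, and WWTR1 most like EIF4G2, LOC100130070 and LOC100133876, with r from 0.989 to 0.995.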

How the data were processed

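Gene names and probe identifiers came from the authors' non-normalized table, and values from the deposited value table, whose 6 columns are named by sample. The deposited intensities are linear and well above 0 for every probe. Per the submitters' processing notes GenomeStudio was used, with no version, and the normalization is not given in the sources used here. All 47230 probe identifiers matched. Signals of 2 probes with 1 name were correlated (r = 0.50 in mean log2 signal over 5601 pairs, and 0.04 for neighbouring rows). The non-normalized table's 12 columns of signals and detection p-values carry numbers that no label uses and were left out, so detection was not assessed.

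Values were floored at 16, which changed none, taken to log2 and fitted with limma 3.58.1 in R 4.3.3 (lmFit, eBayes with an intensity trend, all probes, Benjamini-Hochberg). The code was checked on simulated data. Only 3 arrays per group limit the precision. Named genes by rule are all members, every gene of the upstream, TEAD partner and further target lists with a called probe, POU5F1, NANOG and SOX2, and the 3 probes most similar to each called member probe. Uncalled genes of those lists, and other markers, were named after their values were seen. A gene of the further target list and a similar probe are not reported here, and the counts of that list leave the gene out. Members and lists were chosen with earlier results on this series known. Alternatives covered the floor, normalization, filtering, variance model, weights, replicate block, probe averaging, background correction and each sample left out. Figures were drawn with matplotlib 3.10.9.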

Additional observations from a re-analysis of the deposited data

How the results depend on the processing

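For CTGF, CYR61, LATS2, ANKRD1 and the called TEAD4 probes, direction and call were kept in all 17 alternatives. Of these, 16 were fixed with the design and 1 (normexp with an offset of 50) was chosen after the data were seen. A floor of 4 changed no value, so it could only repeat the main fit and adds nothing to these counts. For AMOTL2 (17 alternatives) and both LATS1 probes (16 each) no call was made in any. Several settings could change the p-value of a bright probe but not its difference. A floor of 64 lies below every signal of the CTGF probe ILMN_2115125, so its difference stayed at 1.80 by construction. Its limma adjusted p was 1.2e-04 with that floor, against 1.5e-23 in the main fit. Samples with the same replicate number shared little of their deviation from the group means (correlations of deviations 0.10, -0.01 and 0.03). The labels do not say whether such samples were handled together. The replicate block changed no member's call and gave 6427 higher and 6291 lower probes, against 6331 and 6242. The YAP1 call was lost with a floor of 64 (-0.20, adjusted p = 0.26), quantile normalization (-0.17, 0.088) and no intensity trend (-0.20, 0.11). The WWTR1 call was lost with a floor of 64 (0.043, 0.50), quantile normalization (0.24, 0.077), median centring (0.24, 0.080) and normexp (0.19, 0.14), and its probe was not tested without the dimmer probes, nor were those of LATS1. Averaging probes per gene gave TEAD4 -0.45 (adjusted p = 1.2e-05), opposite in sign to its dim probe alone. Upstream probes called higher numbered 8 with a floor of 64, against 13. TEAD partner probes called lower numbered 1 without the dimmer probes and 1 per gene, against 2, and further target genes called lower 1 per gene, against 2 probes. Averaging tests fewer features, and the 2 BIRC5 probes count there as 1 gene. The TEAD1 probe called lower was among the dimmer probes left out. Causes of the other moves were not tested.

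Leaving out each sample in turn moved YAP1 between -0.30 and -0.14 and WWTR1 between 0.21 and 0.39, and lower TEAD partner probes between 1 and 2. Signal near background limits WWTR1, LATS1, ANKRD1 and AMOTL2.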
